A study of Mus musculus with 6 samples.

Results

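The transcripts described here are those of 45 genes for the enzymes, lipid-handling proteins, membrane proteins and proton pump of the lysosome, chosen by gene symbol from the 55291 genes of the deposited table. They were measured by RNA-seq of polyadenylated RNA from tumour-associated macrophages (TAM) of mouse liver cancer (hepatocellular carcinoma), in 3 libraries labelled TREM2+ and 3 labelled TREM2-. TREM2 is a lipid-sensing surface receptor of myeloid cells. Both groups came from liver tumour tissue. The sources used here do not give the mouse strain, age, tumour model or sorting gates. They also leave out whether each replicate was a separate animal, so the p-values reflect only variation among these 6 libraries and may include only technical variation. In such bulk samples, fewer cells of a type and less RNA per cell cannot be told apart.

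The lysosome is the organelle in which macrophages break down what they engulf. Soluble hydrolases cut proteins, glycans and lipids in its acidic lumen, and further proteins carry the freed cholesterol and sphingolipids onward or present them to the enzymes. The acid is made by the vacuolar H+-ATPase (V-ATPase), a rotary pump whose cytosolic V1 sector splits ATP and whose membrane V0 sector moves the protons. Many lysosomal genes are bound by the transcription factors TFEB, TFE3 and MITF at an E-box-like element known as the CLEAR element, whose core is CACGTG.

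Promoters of members the results turn on are printed first, from the RefSeq table on GRCm38.p6, each running from 250 bases before to 50 bases after a gene start, 5′ to 3′ on the gene's strand. Capitals mark CACGTG with a T before it or an A after it where present. Gla and Lgmn are hydrolase genes that passed the test below, Lgmn having 2 starts in the table. Acp5 also passed and held no CACGTG in any of its 3 windows, of which 1 is shown. Lamp1 and Atp6v0d1 did not pass and are shown for contrast. The windows are chrX:134600956-134601255 (minus strand) for Gla, chr12:102439679-102439978 (minus) for Lgmn start 1, chr12:102439043-102439342 (minus) for Lgmn start 2, chr9:22130549-22130848 (minus) for Acp5, chr8:13158911-13159210 (plus) for Lamp1 and chr8:105566015-105566314 (minus) for Atp6v0d1.
Gla: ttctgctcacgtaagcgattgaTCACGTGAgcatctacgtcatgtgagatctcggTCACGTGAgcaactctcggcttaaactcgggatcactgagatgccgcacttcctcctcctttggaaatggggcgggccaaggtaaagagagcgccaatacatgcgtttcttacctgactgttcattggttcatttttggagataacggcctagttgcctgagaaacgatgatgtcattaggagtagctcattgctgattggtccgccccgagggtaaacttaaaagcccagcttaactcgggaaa
Lgmn start 1: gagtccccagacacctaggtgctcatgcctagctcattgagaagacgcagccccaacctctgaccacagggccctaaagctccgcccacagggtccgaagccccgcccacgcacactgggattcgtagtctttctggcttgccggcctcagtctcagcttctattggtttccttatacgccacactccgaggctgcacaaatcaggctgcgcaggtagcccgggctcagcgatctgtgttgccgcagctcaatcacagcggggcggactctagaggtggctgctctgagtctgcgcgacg
Lgmn start 2: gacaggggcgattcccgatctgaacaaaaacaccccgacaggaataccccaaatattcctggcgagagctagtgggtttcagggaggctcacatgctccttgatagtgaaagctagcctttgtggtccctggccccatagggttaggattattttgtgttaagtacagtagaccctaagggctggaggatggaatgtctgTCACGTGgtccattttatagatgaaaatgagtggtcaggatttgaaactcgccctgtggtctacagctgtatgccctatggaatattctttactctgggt
Acp5: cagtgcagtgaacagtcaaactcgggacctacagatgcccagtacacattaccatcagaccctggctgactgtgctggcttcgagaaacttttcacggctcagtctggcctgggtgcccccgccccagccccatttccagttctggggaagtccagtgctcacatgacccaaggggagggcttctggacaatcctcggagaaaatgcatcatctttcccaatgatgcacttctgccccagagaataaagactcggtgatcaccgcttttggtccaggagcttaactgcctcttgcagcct
Lamp1: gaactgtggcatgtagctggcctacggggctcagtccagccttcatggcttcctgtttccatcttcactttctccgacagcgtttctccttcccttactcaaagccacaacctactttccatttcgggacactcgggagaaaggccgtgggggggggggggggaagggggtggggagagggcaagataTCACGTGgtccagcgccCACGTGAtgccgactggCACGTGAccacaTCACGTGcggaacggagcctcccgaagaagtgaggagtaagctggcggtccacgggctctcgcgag
Atp6v0d1: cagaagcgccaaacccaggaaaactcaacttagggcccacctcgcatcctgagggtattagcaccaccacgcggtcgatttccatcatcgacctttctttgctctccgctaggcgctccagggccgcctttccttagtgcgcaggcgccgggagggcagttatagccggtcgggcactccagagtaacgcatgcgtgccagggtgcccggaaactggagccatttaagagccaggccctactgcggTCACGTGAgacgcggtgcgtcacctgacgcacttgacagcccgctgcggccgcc
The Gla window held 2 copies, at bases -227 and -194 from the start, both in the longer form TCACGTGA. The Lamp1 window held 4 copies, at -61, -45, -28 and -15. Lgmn held none in the window of start 1 and 1 copy, at -49, in that of start 2. The bases after start 1 were found in a GENCODE M21 transcript of Lgmn, and those after start 2 were not. Those after the Atp6v0d1 start were also not found in a transcript of that gene.

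Recovered depth ranged from 12588174 to 17229417 reads in TREM2+ libraries and from 11522966 to 19975865 in TREM2- libraries, and the lowest member had 69 reads in its lowest library. A repeat-derived family of 12 genes around Gm10800 took 0.704%, 5.05% and 17.5% of the TPM in TREM2+ replicates 1, 2 and 3, against 0.427%, 12.9% and 24.6% in TREM2- replicates 1, 2 and 3. Replicate 3 was the lowest of its group for 38 of the 45 members in TREM2+ libraries and for 32 in TREM2- libraries. Trem2 itself had 39.6, 40.8 and 30.7 TPM in TREM2+ libraries, against 16.9, 20.5 and 21.1 TPM in TREM2- libraries, and did not pass the test (log2 fold change 0.89 ± 0.22, limma adjusted p = 0.0855). Markers of several cell types, of macrophages as well as of other cells, moved with the groups. All 6 Kupffer cell markers passed as higher in TREM2+ libraries, with summed TPM of 956 to 1944 in TREM2+ and 141 to 244 in TREM2- libraries, as did 7 of 8 sinusoidal endothelial markers, with sums of 218 to 306 in TREM2+ and 19.0 to 38.7 in TREM2- libraries. Of the basophil and mast cell markers, 3 of 6 passed as lower, with sums of 17.01 to 26.7 in TREM2+ and 117 to 214 in TREM2- libraries, and of the monocyte markers 1 of 6, with sums of 3252 to 29443 in TREM2+ and 12072 to 72829 in TREM2- libraries. None of the 6 T and NK cell markers passed, but all 6 log2 fold changes were negative, with a median of -0.82, and the sums were 847 to 1008 in TREM2+ and 1366 to 3249.5 in TREM2- libraries. None of the B and plasma, neutrophil or hepatocyte markers passed either, at 6 genes each. Of the macrophage markers 1 of 8 passed, as higher, and 7 of 8 had a positive log2 fold change, with a median of 0.45. Their sums were 32732 to 42927 in TREM2+ and 57589 to 72889.7 in TREM2- libraries, mostly Lyz2, and 4396 to 5625 in TREM2+ and 2246 to 2528 in TREM2- libraries without Lyz2. No marker was at 0 in every library. The part of these cells, and of the repeat family, in the results below was not tested, beyond the fit without that family.

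Of the 45 genes, 4 rose in TREM2+ libraries and none fell. They were the pump subunit gene Atp6v0d2 and the hydrolase genes Lgmn, Acp5 and Gla, higher by 2.30 to 3.48-fold. All 45 passed the filter on low values (at least 1 TPM in at least 3 libraries). The test was limma on log2(TPM + 1), two-sided, adjusted over all 13788 genes tested, with a threshold of 0.05 on the adjusted p. The 4 genes are 8.89% of the members, against 2.05% of all genes tested that passed as higher, and 0.37% passed as lower. At an unadjusted p under 0.05, 13 members (28.9%) were higher and none lower, against 7.45% and 5.34% of all genes. In 14 members (31.1%) every TREM2+ library lay above every TREM2- library and in 2 (4.44%) below, against 9.07% and 7.62% of all genes. The log2 fold change was positive in 32 of 45 members, with a median of 0.30 and a range of -0.73 to 1.80. Over all genes tested the median was -0.09 and 39% were positive. Without the 4 genes that passed, the median of the other 41 was 0.22. The summed TPM of all members was 11746, 13474 and 10006 in TREM2+ libraries 1, 2 and 3, against 9620.01, 8397 and 7956 in TREM2- libraries 1, 2 and 3. Without the 4 genes that passed, the sums overlapped, at 9648, 10846 and 8388 in TREM2+ libraries, against 9115, 7722 and 7164 in TREM2- libraries.

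**Figure D1:**
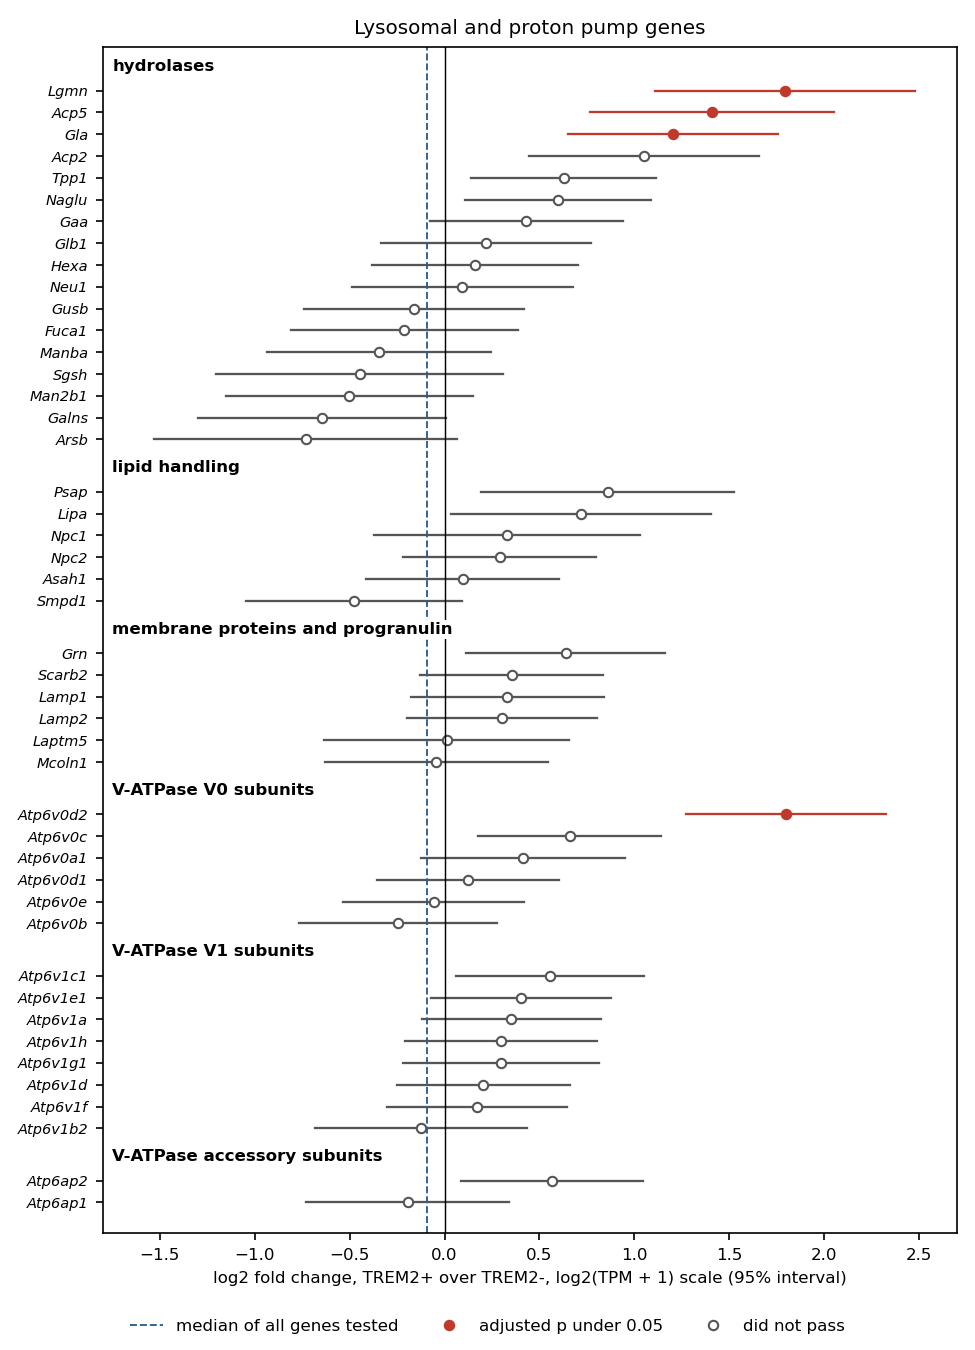
Log2 fold change of the 45 genes, TREM2+ over TREM2- libraries, on the log2(TPM + 1) scale (horizontal axis), by group, with 95% intervals from limma (n = 3 libraries each). Filled points passed the adjusted threshold of 0.05, and the dashed line is the median of all genes tested, -0.09. Atp6v0d2, Lgmn, Acp5 and Gla are the 4 filled points, at 1.80, 1.79, 1.41 and 1.20.

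Among the 17 soluble hydrolases, 3 rose and the median log2 fold change was 0.16, with 10 positive. Lgmn encodes legumain, an endopeptidase that cuts after asparagine (ENSMUSG00000021190.14, chr12:102394084-102439813 on mm10, minus strand). It had 1629.6, 1931 and 1105 TPM in TREM2+ libraries, against 311, 499.7 and 536 TPM in TREM2- libraries. Every TREM2+ library was above every TREM2- library, and the difference was 1.79 ± 0.30 on the log2 scale (3.47-fold, limma adjusted p = 0.0194). Lgmn was the second most abundant member in TREM2+ libraries by mean TPM and the 8th in TREM2- libraries. Acp5 encodes tartrate-resistant acid phosphatase (ENSMUSG00000001348.15, chr9:22126727-22135711, minus strand). It had 353, 577 and 377 TPM in TREM2+ libraries, against 153, 125 and 212 TPM in TREM2- libraries, with no overlap and a log2 fold change of 1.41 ± 0.28 (2.66-fold, adjusted p = 0.0392). Gla encodes alpha-galactosidase A, which takes terminal galactose from globotriaosylceramide (ENSMUSG00000031266.6, chrX:134588149-134601125, minus strand). It had 61.9, 71.7 and 76.1 TPM in TREM2+ libraries, against 23.5, 39.5 and 28.1 TPM in TREM2- libraries, with no overlap and a log2 fold change of 1.20 ± 0.24 (2.30-fold, adjusted p = 0.0405).

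These 3 calls depended on single libraries and on the scaling. Lgmn passed in 4 of 6 fits that left out 1 library, and did not without TREM2- replicate 1 (adjusted p = 0.0555) or TREM2- replicate 3 (0.0541). Of the single libraries left out, Acp5 passed only without TREM2+ replicate 1 (0.0493), and its adjusted p was 0.0994 without TREM2+ replicate 2 and 0.071 without TREM2+ replicate 3. Leaving out a TREM2- library gave 0.106 (replicate 1), 0.054 (replicate 2) and 0.053 (replicate 3) for Acp5. Gla passed only without TREM2- replicate 2 (0.0181), and its adjusted p ranged from 0.0892 (replicate 1) through 0.106 (replicate 2) to 0.115 (replicate 3) when a TREM2+ library was left out, and was 0.0814 with TREM2- replicate 1 and 0.125 with TREM2- replicate 3 left out. With the repeat family left out before rescaling, the adjusted p was 0.0528 for Lgmn, 0.0784 for Acp5 and 0.0774 for Gla. The log2 fold changes there were 1.71, 1.33 and 1.12. With quantile normalization none of the 3 passed (adjusted p = 0.0646 for Lgmn, 0.0841 for Acp5 and 0.0841 for Gla), and with median-of-ratios scaling Lgmn passed (0.0433) and Acp5 (0.0531) and Gla (0.0696) did not. Without the filter on low values, which raised the number of genes tested, none of the 3 passed (0.117, 0.17 and 0.137 for Lgmn, Acp5 and Gla). With the replicate number fitted as a block, none of the 3 passed either (limma adjusted p = 0.0796, 0.12 and 0.0675 for Lgmn, Acp5 and Gla).

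A further 3 hydrolase genes lay higher in every TREM2+ library than in any TREM2- library but did not pass. With the 3 that passed they make 6 of 17 (35.3%), against 9.07% of all genes tested. Acp2, the lysosomal acid phosphatase, had 46.1, 45.8 and 43.0 TPM in TREM2+ libraries, against 31.6, 17.5 and 16.99 TPM in TREM2- libraries (log2 fold change 1.05 ± 0.27, limma adjusted p = 0.0968). It passed without TREM2- replicate 1, its highest TREM2- library (adjusted p = 0.0192), and with the repeat family left out (0.047). Median-of-ratios scaling (0.0182) and quantile normalization (0.0161) also let Acp2 pass, where Acp5 and Gla did not. Besides the fit reported, Acp2 passed in 7 settings, Acp5 in 7 and Gla in 6. Tpp1, a tripeptidyl peptidase, averaged 84.9 ± 11 TPM in TREM2+ and 54.7 ± 7.58 TPM in TREM2- libraries (SD, n = 3 each; 0.63 ± 0.21, limma adjusted p = 0.233). Naglu, which acts on heparan sulfate, averaged 28.0 ± 1.48 TPM in TREM2+ and 18.3 ± 3.28 TPM in TREM2- libraries (0.60 ± 0.22, limma adjusted p = 0.268).

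The other 11 hydrolases ranged from -0.73 to 0.43 and none passed. The glycan-cutting enzymes Gaa (glycogen), Glb1 (beta-galactosidase), Hexa and Neu1 (sialidase) were at 0.43, 0.22, 0.16 and 0.09, and Gusb, Fuca1, Manba and Man2b1, which release glucuronic acid, fucose and mannose, were at -0.16, -0.21, -0.34 and -0.50. The sulfatase genes Sgsh, Galns and Arsb were the other hydrolases below 0, at -0.45 ± 0.33, -0.64 ± 0.29 and -0.73 ± 0.35 (limma adjusted p = 0.701, 0.399 and 0.457). Arsb had 3.31, 3.37 and 2.37 TPM in TREM2+ libraries, against 10.6, 4.09 and 3.94 TPM in TREM2- libraries, and its groups did not overlap. TREM2- replicate 1 was far above the other TREM2- libraries. Arsb shares 38.5% of its exon stretches of 50 bases with other genes and overlaps Gm26527, and Sgsh shares 18.5% with Card14, so reads of these genes are uncertain.

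None of the 6 lipid-handling genes passed. Psap encodes prosaposin, whose products help the sphingolipid hydrolases. By mean TPM it was the most abundant member in TREM2+ libraries, though below Lgmn in TREM2+ replicates 1 and 2. It had 1417, 1897 and 1602 TPM in TREM2+ libraries, against 1252, 612 and 939 TPM in TREM2- libraries. The groups did not overlap, and TREM2- replicate 1 was close to TREM2+ replicate 1. The change of 0.86 ± 0.29 missed the threshold (limma adjusted p = 0.235). It also missed it without TREM2- replicate 1 (1.1, adjusted p = 0.123). Lipa, lysosomal acid lipase, had 40.9, 44.0 and 43.2 TPM in TREM2+ libraries, against 41.9, 19.0 and 20.7 TPM in TREM2- libraries. TREM2- replicate 1 lay among the TREM2+ libraries, and Lipa (0.72 ± 0.30, limma adjusted p = 0.355) passed without that library (1.07, adjusted p = 0.0376). Smpd1, acid sphingomyelinase, had 12.4, 13.5 and 9.57 TPM in TREM2+ libraries, against 22.0, 14.9 and 14.1 TPM in TREM2- libraries. All TREM2+ values were below the TREM2- values, without passing (-0.48 ± 0.25, limma adjusted p = 0.506). The cholesterol carriers Npc2 and Npc1 and acid ceramidase Asah1 had log2 fold changes of 0.29, 0.33 and 0.10, with overlapping groups.

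No membrane protein gene passed, and neither did Grn, which encodes progranulin, a secreted protein that is processed in lysosomes. Grn had 737, 718 and 497 TPM in TREM2+ libraries, against 442, 398 and 396 TPM in TREM2- libraries, with no overlap (0.64 ± 0.23, limma adjusted p = 0.268). Lamp1, the major lysosomal membrane glycoprotein whose promoter is printed above, had 1012, 1095 and 792 TPM in TREM2+ libraries, against 828, 775 and 687 TPM in TREM2- libraries. Its groups overlapped, since TREM2+ replicate 3 was below TREM2- replicate 1 (0.33 ± 0.22, adjusted p = 0.658). Lamp2 had 112, 106 and 98.3 TPM in TREM2+ libraries, against 89.0, 101 and 68.3 TPM in TREM2- libraries (0.30 ± 0.22, adjusted p = 0.694). Scarb2, the receptor that carries beta-glucocerebrosidase to lysosomes, had 49.8, 49.4 and 41.1 TPM in TREM2+ libraries, against 41.9, 35.8 and 31.6 TPM in TREM2- libraries (0.35 ± 0.21, adjusted p = 0.584). Laptm5, a lysosomal membrane protein of blood cells, averaged 948 ± 154 TPM in TREM2+ and 968 ± 335 TPM in TREM2- libraries, with a 95% interval of -0.63 to 0.66 on the log2 scale. The calcium channel gene Mcoln1 was at -0.04.

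**Figure D2:**
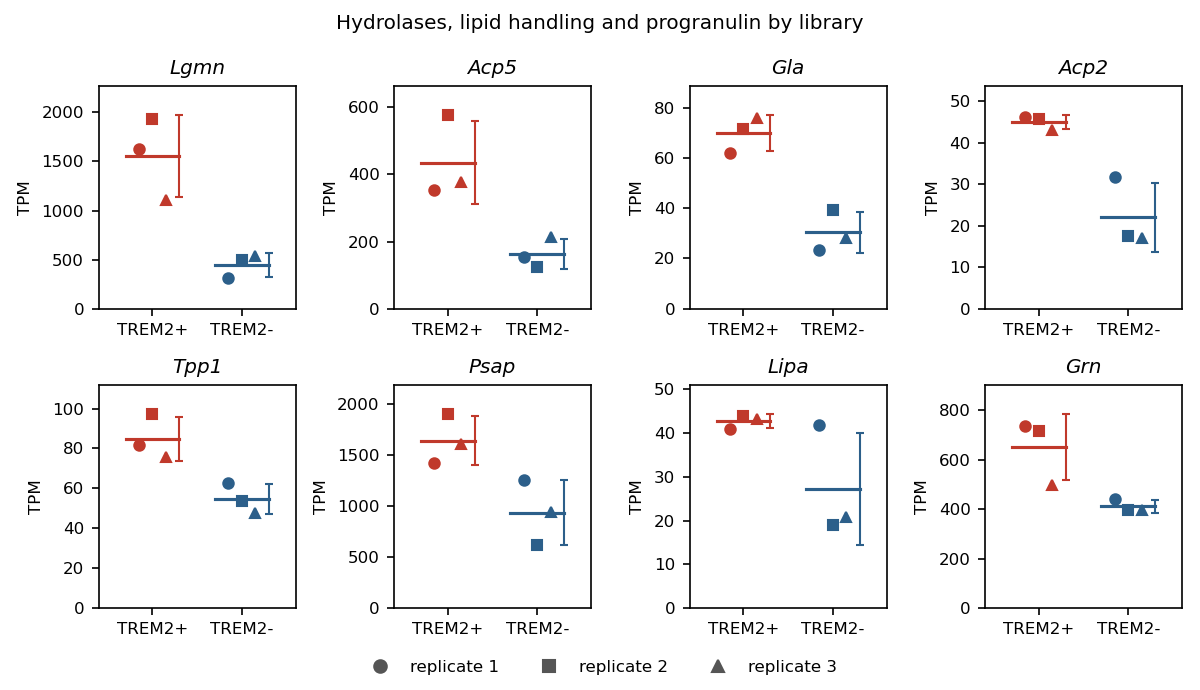
TPM in each library (vertical axes from 0) of 8 genes, TREM2+ left and TREM2- right, with point shapes for the replicate, a line at the group mean and a bar of 1 SD (n = 3). TREM2- replicate 1 (circle) is the highest TREM2- library for Acp2, Tpp1, Psap, Lipa and Grn, and lies among the TREM2+ libraries for Lipa.

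Of the 16 V-ATPase genes 1 rose, Atp6v0d2, and the other 15 had a median log2 fold change of 0.30 with a highest value of 0.66. Atp6v0d2 encodes the d2 form of the V0 d subunit, which joins the rotor to the V1 stalk and is known from osteoclasts, macrophages and kidney (ENSMUSG00000028238.6, chr4:19876841-19922605 on mm10, minus strand). It had 54.0, 48.2 and 60.3 TPM in TREM2+ libraries, against 18.3, 11.7 and 15.1 TPM in TREM2- libraries. The groups did not overlap, and the lowest TREM2+ library was well above the highest TREM2- library. The log2 fold change was 1.80 ± 0.23, with a 95% interval of 1.27 to 2.32 (3.48-fold, limma adjusted p = 0.00673). It passed in all 6 fits that left out 1 library, with adjusted p from 0.00859 to 0.0297, and missed without both libraries numbered 3 (adjusted p = 0.168), where none of the genes tested passed by limma and 1080 had an unadjusted p under 0.05.

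The second form of the same subunit, Atp6v0d1, is the widely expressed one. It had 89.6, 90.3 and 72.0 TPM in TREM2+ libraries, against 79.6, 84.5 and 66.6 TPM in TREM2- libraries, and the groups overlapped. Its log2 fold change was 0.12 ± 0.21, with a 95% interval of -0.36 to 0.60 (limma adjusted p = 0.885). As a share of the summed TPM of both d genes, Atp6v0d2 was 37.6%, 34.8% and 45.6% in TREM2+ libraries, against 18.7%, 12.2% and 18.4% in TREM2- libraries. The mean share was 39.3% ± 5.60 in TREM2+ and 16.4% ± 3.71 in TREM2- libraries (SD, n = 3 each), a difference of 22.9 percentage points. An exact two-sided permutation test gave p = 0.1, the smallest that 3 against 3 libraries can give.

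**Figure D3:**
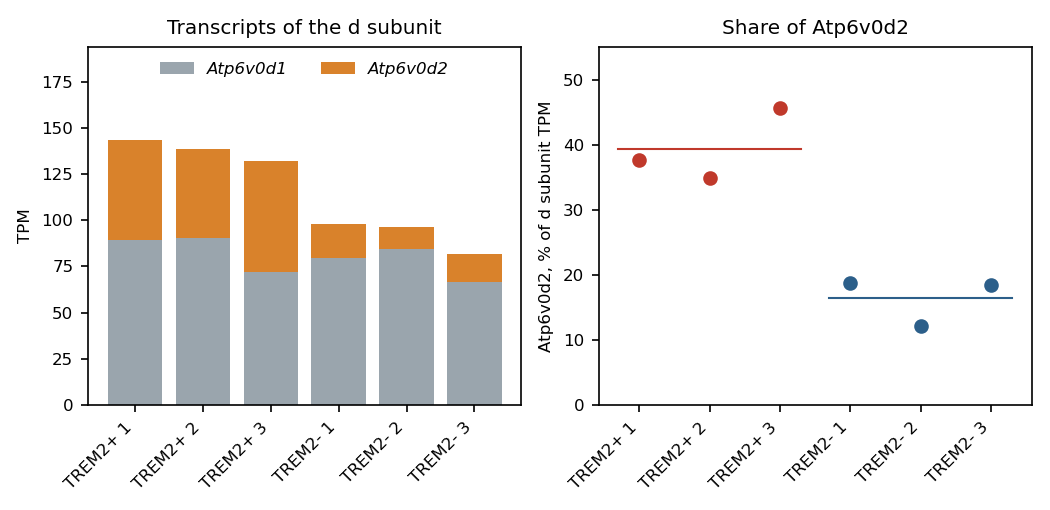
Left, TPM of Atp6v0d1 and Atp6v0d2 stacked in each library (vertical axis from 0), and right, the share of Atp6v0d2 in their sum (%), with lines at the group means, TREM2+ libraries left of TREM2- libraries. Atp6v0d1 stays between 66.6 and 90.3 TPM, and the share is 34.8% to 45.6% in TREM2+ and 12.2% to 18.7% in TREM2- libraries.

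In the rest of V0, the proteolipid gene Atp6v0c, whose ring carries the protons, had 458, 398 and 341 TPM in TREM2+ libraries, against 265, 262 and 227 TPM in TREM2- libraries. Its groups did not overlap and it did not pass (0.66 ± 0.21, limma adjusted p = 0.201). Atp6v0c shares 10.7% of its exon stretches of 50 bases with the pseudogene Atp6v0c-ps2, so its level is uncertain. Atp6v0a1, a form of the membrane subunit that takes protons across, had 12.7, 12.5 and 9.48 TPM in TREM2+ libraries, against 7.70, 10.4 and 7.25 TPM in TREM2- libraries (0.41 ± 0.24, adjusted p = 0.559). The ring subunit Atp6v0b and the small subunit Atp6v0e were at -0.25 and -0.06, with overlapping groups.

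The 8 V1 genes ranged from -0.12 to 0.55 and none passed. In 3 of them (37.5%) every TREM2+ library was above every TREM2- library, against 9.07% of all genes tested. Atp6v1c1, of the C subunit that reaches between the sectors, had 64.4, 65.3 and 63.3 TPM in TREM2+ libraries, against 49.9, 47.9 and 34.5 TPM in TREM2- libraries (0.55 ± 0.22, limma adjusted p = 0.32). Atp6v1e1, of a peripheral stalk, had 177, 159 and 153 TPM in TREM2+ libraries, against 136, 132 and 104 TPM in TREM2- libraries (0.40 ± 0.21, adjusted p = 0.501). Atp6v1a, of the catalytic A subunit, had 73.9, 73.9 and 71.5 TPM in TREM2+ libraries, against 62.8, 62.3 and 47.4 TPM in TREM2- libraries (0.35 ± 0.21, adjusted p = 0.574). Atp6v1h, a regulatory subunit, had 23.0, 20.2 and 19.5 TPM in TREM2+ libraries, against 19.7, 17.5 and 13.6 TPM in TREM2- libraries, and its groups overlapped slightly (0.30 ± 0.22, adjusted p = 0.70). Atp6v1g1, Atp6v1d, Atp6v1f and Atp6v1b2, the non-catalytic B subunit gene, were at 0.30, 0.20, 0.17 and -0.12. Atp6v1g1 shares 19.2% of its exon stretches of 50 bases with Gm13453.

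The accessory subunit genes stood on either side of 0. Atp6ap2, which also encodes the prorenin receptor, had 233, 223 and 194 TPM in TREM2+ libraries, against 151, 165 and 124 TPM in TREM2- libraries, with no overlap (0.57 ± 0.21, limma adjusted p = 0.281). Atp6ap1 had 428, 519 and 353 TPM in TREM2+ libraries, against 515, 551 and 415 TPM in TREM2- libraries, with overlap (-0.19 ± 0.24, adjusted p = 0.831). The summed TPM of all 16 pump genes was 3938, 4040.1 and 3300.2 in TREM2+ libraries, against 3469.6, 3671 and 2918 in TREM2- libraries, so these sums overlapped. Those of the 17 hydrolases did not, at 2962, 3788 and 2393 in TREM2+ libraries, against 1613, 1555 and 1617 in TREM2- libraries. Without Lgmn, Acp5 and Gla, the sums of the other 14 hydrolases overlapped, at 917, 1209 and 834 in TREM2+ libraries, against 1126, 891 and 841 in TREM2- libraries, and their median log2 fold change was -0.03.

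**Figure D4:**
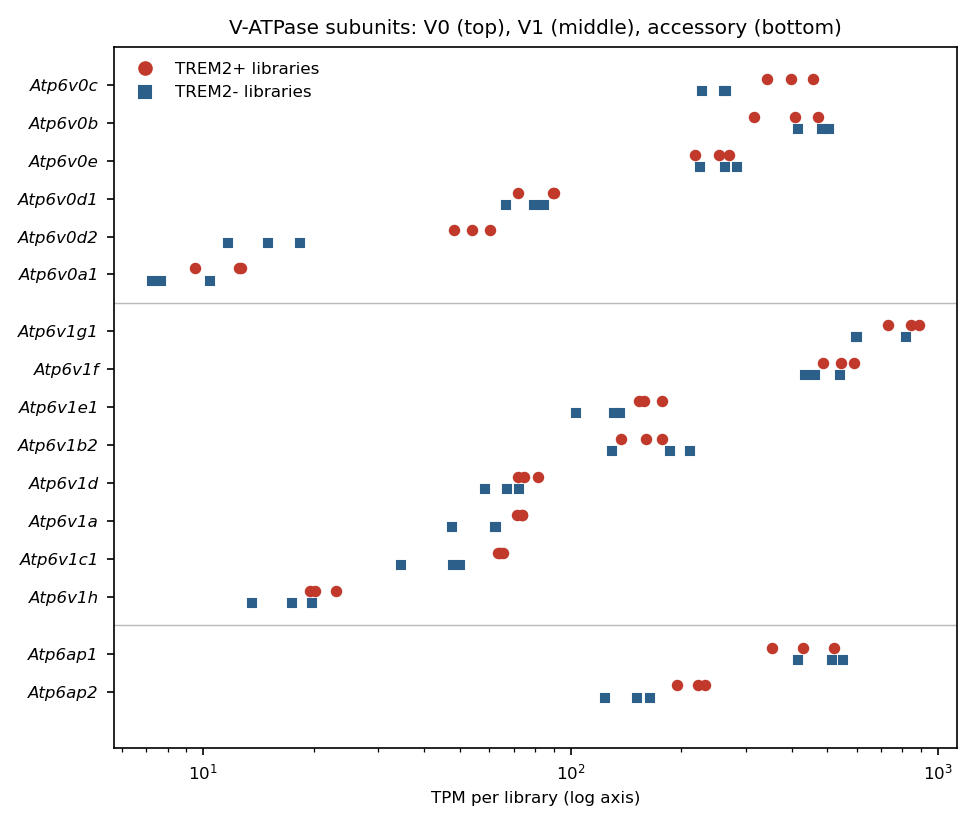
TPM of the 16 V-ATPase genes in each library (horizontal log axis), V0 at the top, V1 in the middle and accessory subunits at the bottom, with TREM2+ libraries as circles above TREM2- libraries as squares. Atp6v0d2 has the widest gap between groups. In 6 of the 16 genes (37.5%) TREM2+ libraries are all above TREM2- libraries, against 9.07% of all genes tested.

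By level, the members spanned from 3.02 TPM (Arsb) to 1638 TPM (Psap) in the mean of TREM2+ libraries. The most abundant there were Psap, Lgmn, Lamp1 (966 ± 157), Laptm5 (948 ± 154) and Atp6v1g1 (819.6 ± 79.6), and neighbours in this order lay within their SDs except Lgmn and Lamp1. In TREM2- libraries Laptm5, Psap and Lamp1 led, at means of 968, 934 and 763 TPM. Acp5 was the 8th member in TREM2+ and the 15th in TREM2- libraries, and Atp6v0d2 the 30th in TREM2+ and the 38th in TREM2- libraries.

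Other genes of the lysosome were taken from 4 further lists, of which 1 gene passed. It was 1 of 25 lysosomal membrane protein genes (4%), against 2.05% of all genes tested that passed as higher. None of the 26, 9 and 25 genes tested in the other lists passed. At the adjusted threshold, 1 gene does not set these lists apart. In 7 of the 25 membrane protein genes (28%) all TREM2+ libraries were above all TREM2- libraries, against 9.07% of all genes. In 1 (4%) all were below, against 7.62%. At an unadjusted limma p under 0.05, 6 (24%) were higher and none lower, against 7.45% and 5.34%. In the other lists, in the same order, 11.5%, 0% and 16% lay above without overlap, and 7.69%, 11.1% and 0% below. At that p, 11.5%, 0% and 12% were higher, and 1 gene of each list lower. The gene that passed was Slc15a3, a lysosomal transporter of peptides and histidine. It had 36.4, 31.8 and 35.1 TPM in TREM2+ libraries, against 15.3, 18.5 and 13.8 TPM in TREM2- libraries (1.08 ± 0.21, limma adjusted p = 0.0338). Its groups did not overlap. Slc15a3 passed in 1 of 6 fits that left out 1 library, without TREM2- replicate 2 (0.0434). Leaving out TREM2+ replicate 1, 2 or 3 gave an adjusted p of 0.189, 0.0883 and 0.101, and leaving out TREM2- replicate 1 or 3 gave 0.0617 and 0.109. The other 24 lysosomal membrane protein genes did not pass, and the median of the 25 was -0.01. Cd63, a tetraspanin of late endosomes, had 280.1, 273.5 and 250.1 TPM in TREM2+ libraries, against 175, 128 and 142 TPM in TREM2- libraries (0.86 ± 0.21, adjusted p = 0.0841). The metal transporter gene Slc11a1 was at 0.83 ± 0.21 (0.0889) and Cd164 at 0.81 ± 0.22 (0.124).

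Of 26 genes listed as other lysosomal hydrolases none passed, and the median was 0.04 with 13 positive. The list also held Gm2a and Hgsnat, whose proteins are not hydrolases. Smpdl3a, a phosphodiesterase related to acid sphingomyelinase, had 399, 673 and 362 TPM in TREM2+ libraries, against 831, 1016 and 821 TPM in TREM2- libraries. Every TREM2+ library was below every TREM2- library, without passing (-0.94 ± 0.28, limma adjusted p = 0.156). The hyaluronidase gene Hyal2 and the phospholipase gene Pla2g15 were at 0.97 and 0.70 (limma adjusted p = 0.179 and 0.268).

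Of 16 other V-ATPase isoforms and assembly factors, 9 passed the filter on low values and none passed the test, with a median of -0.06. The largest difference was that of Rogdi, an assembly factor, at -0.80 ± 0.33 (limma adjusted p = 0.349). Tcirg1, the a3 form of the membrane subunit of osteoclasts and lysosomes, had 68.1, 80.0 and 39.0 TPM in TREM2+ libraries, against 66.1, 62.4 and 49.97 TPM in TREM2- libraries (0.02 ± 0.29, adjusted p = 0.99). Dmxl2, Atp6v0a2 and Atp6v1g2 were at 0.37, -0.41 and -0.20.

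Of 25 genes for sorting and regulation of lysosomes none passed, and the median was 0.09. Mitf had 3.10, 2.74 and 2.79 TPM in TREM2+ libraries, against 1.74, 1.43 and 1.25 TPM in TREM2- libraries, with no overlap (0.65 ± 0.23, limma adjusted p = 0.262). Tfec, its relative, was at 0.95 ± 0.39 with overlapping groups (0.343). Tfeb averaged 17.8 ± 1.44 TPM in TREM2+ and 21.5 ± 6.84 TPM in TREM2- libraries (SD, n = 3 each), and Tfe3 14.5 ± 1.30 TPM in TREM2+ and 12.6 ± 3.05 TPM in TREM2- libraries. Their log2 fold changes were -0.22 and 0.20. The small GTPase gene Rragd was at 0.82 ± 0.26 (0.188), and the sorting receptor gene Sort1 at -0.92 ± 0.33 (0.252).

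RefSeq promoters were given for 37 of the 45 members, and those of Atp6v0d2 and 7 others were not in the table. CACGTG, which is its own reverse complement, was in the promoter of 12 of 37 members (32.4%), against 8.09% of the 27025 genes with a promoter in the table and 11.7% of the 9232 of them that were tested. The longer TCACGTGA was in 5 members (13.5%; Atp6v0d1, Atp6v0e, Atp6v1a, Gla and Mcoln1), against 1.12% of all genes and 2.30% of the genes tested. TCACGTG or its reverse complement CACGTGA, which overlap with both, was in the same 12 members as CACGTG, against 4.29% of all genes and 7.08% of those tested. These are descriptions of letters in a window. The 12 members with CACGTG had a median log2 fold change of 0.27, and 2 of them passed, Gla and Lgmn (by start 2 only). The 25 without it had a median of 0.29 and 1 passed, Acp5. Among the printed promoters, Lamp1 with 4 copies had a log2 fold change of 0.33 and did not pass, and Gla with 2 copies had one of 1.20 and passed.

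**Figure D5:**
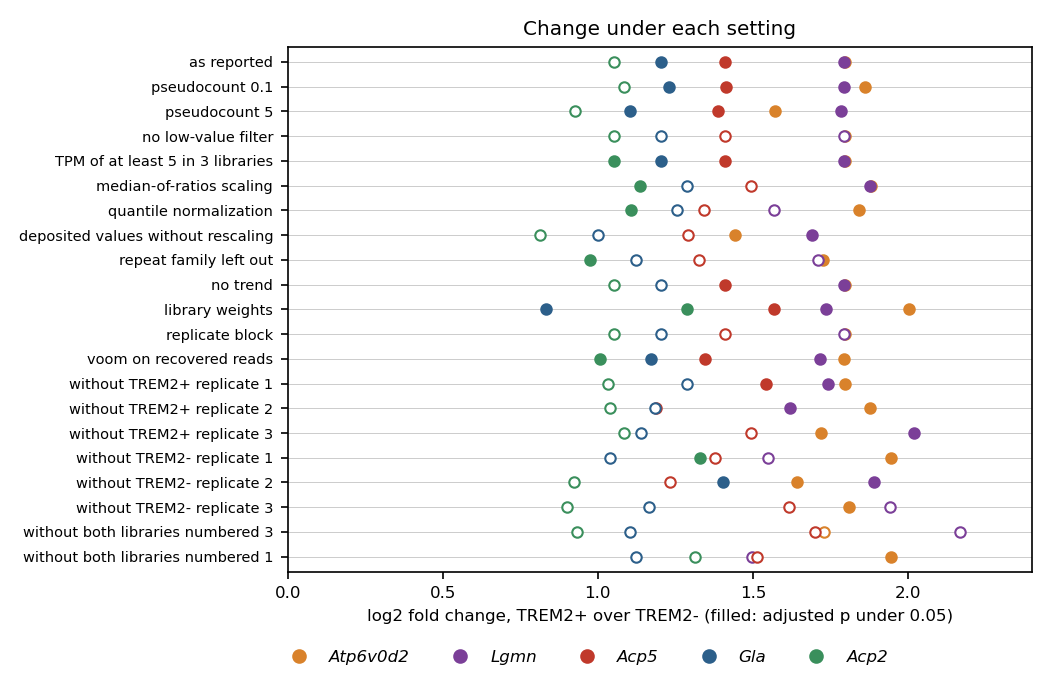
Log2 fold change, TREM2+ over TREM2- (horizontal axis), of 5 genes under each setting (vertical axis), filled where the adjusted p was under 0.05. Where their values nearly coincide, the point of Lgmn covers that of Atp6v0d2. Atp6v0d2 is filled in all but the fit without both libraries numbered 3, and all 5 genes stay above 0 in every setting shown.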

How the data were processed

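RNA from tumour-associated macrophages was sequenced in 6 libraries, 3 labelled TREM2+ and 3 TREM2-, and grouped by their labels. Per the submitters' processing notes, STAR 2.7.10a, Subread and featureCounts 2.0.3 were used with mm10; annotation, strand setting and formula are items not given in the sources used here. Although the deposited table is named TPM, its 6 columns together sum to 1000000, so the deposited values were taken as a length-scaled signal, and here every library was brought to a sum of 1000000 (TPM below). The planned test assumed TPM and was applied to these. The deposited signal was multiplied by GENCODE M21 exon lengths and divided by a single factor for all libraries. That factor was estimated from the most frequent small value and refined on values that came out whole. Whole reads, within 0.01 read, resulted for 98.7% of 36745 matched genes above 0, and all 45 members were recovered.

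The test, for genes reaching 1 TPM in 3 or more libraries, was that of limma 3.58.1 (R 4.3.3) applied to log2(TPM + 1), pseudocount 1, with a mean-variance trend, two-sided, Benjamini-Hochberg adjusted over all genes. Values after ± are standard errors beside log2 fold changes and SDs beside TPM. Fold changes on this scale understate low genes. The 45 members, the lists and the settings tried were chosen with earlier results of these data known. All members could be named. Library values are given for those that passed and for up to 4 per group with the smallest p. Of other lists, genes that passed and up to 4 with the smallest p could be named, some with log2 fold changes only. Tfeb, Tfe3 and Tcirg1 were named besides, after their values were seen, as were some values of other members. A gene that the rule takes is not reported here. The settings were other pseudocounts, filters, scalings, no repeat family, no trend, library weights, a replicate block, voom on recovered reads, leaving out each library or both numbered 3, and a looser threshold. Leaving out both libraries numbered 1 was added after seeing the data. Read depth limits the precision of the lowest members, and without strand information overlapping genes cannot be told apart. Overlaps on the opposite strand include Hexa with Tmem202 (10.6% of its 50-base stretches shared), Acp2 with Ddb2 (9.59%) and Acp5 with 6530413G14Rik (4.64%). Atp6v1f shares 11.2% with AC169506.3.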

Additional observations from a re-analysis of the deposited data

How the results depend on the processing

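No member passed as lower in any setting. Against 4 members higher, the count was 1 without a low-value filter, 2 with the deposited values and 2 with the repeat family left out, 12 with library weights, 0 without both libraries numbered 3, 1 without both libraries numbered 1, and 1 to 3 with a single library left out. With median-of-ratios scaling 6 members passed, 2 of them among the 4, and with quantile normalization 5, 1 of them among the 4. The others were Acp2, Atp6v0c, Naglu and Tpp1 with both. Against 333 genes called, the count was 98 without a filter, 501 with median-of-ratios scaling, 517 with quantile normalization, 1365 with library weights, 627 with voom, 0 without both libraries numbered 3 (limma; 1080 genes and 10 members at an unadjusted p under 0.05), 126 without both libraries numbered 1, 514 at an adjusted p under 0.1, and 126 to 446 with a single library left out. Calls were 282 higher and 51 lower as reported, and 170 and 86 with deposited values, 284 and 101 with the repeat family left out, 976 and 389 with library weights, and 455 and 172 with voom. The median of all genes moved to 0.02 with library weights, and the members' median stayed 0.30 to 0.41 above that of all genes in the settings run. With the replicate block, 1 member (Atp6v0d2) and 126 genes were called. Replicate numbers were not taken to pair the samples, since no pairing is stated in the sources used here. Deviations of same-numbered libraries correlated at 0.188, -0.033 and 0.224, and not every library correlated best with its own number. These values do not settle pairing, and the repeat family share rose with the replicate number in both groups. The share of Atp6v0d2 differed by 19.8 to 25.2 points with a library left out, 20.8 without both numbered 3 and 26.5 on reads without length.

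Directions turned in 23 of 916 checks, none of them for a gene that passed. With a single library left out, the log2 fold change ran from -0.0045 to 0.2849 for Hexa, from -0.3806 to 0.0474 for Gusb, from -0.0478 to 0.2785 for Neu1, from -0.3696 to 0.0057 for Fuca1, from -0.0554 to 0.1949 for Asah1, from -0.179 to 0.2781 for Laptm5, from -0.2398 to 0.116 for Mcoln1, from -0.1511 to 0.0296 for Atp6v0e and from -0.3294 to 0.0244 for Atp6v1b2. Asah1 was at -0.0291 with library weights. Laptm5 was at -0.242, -0.0801, -0.0713 and -0.0575 with quantile normalization, deposited values, the repeat family left out and voom. Mcoln1 was at 0.0371 and 0.0147 with median-of-ratios and quantile scaling, and Atp6v0e at 0.0279 with median-of-ratios scaling. The causes were not tested. Members with under 100 reads in a library, Arsb and Sgsh, are limited by depth.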
